A study of Mus musculus with 8 samples.

Results

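Members of the Bcl2 family set the threshold for apoptosis through the mitochondria, and 9 of their genes were followed here in mouse embryos at the 2-cell stage: Bcl2l10, Mcl1, Bcl2l1, Bax, Bak1, Bcl2l11, Bid, Bad and Bik. The genes were taken by symbol from a table of 55487 genes, and all 9 were found in it. Of these, 8 passed the filter on low counts and entered the test between the groups, while Bak1 did not. Each library was made from the total RNA of a pool of 5 embryos. The knockdown-labelled group (4 libraries, genotype labelled polq knockdown) was injected as zygotes with CasRx and a guide RNA against Polq, and the control group (4 libraries, genotype labelled WT) with CasRx, for which the labels name no guide. CasRx is a nuclease that a guide RNA directs to cut a chosen transcript, and Polq encodes DNA polymerase theta, an enzyme of alternative end joining. Injection was at 20 h after human chorionic gonadotropin in both groups and RNA was taken 10 h later, so injected CasRx is shared by all 8 libraries. The labels do not give the mouse strain or the guide's sequence.

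Bcl2 family proteins fall into guardians, which hold back cell death, effectors, which oligomerise in the outer mitochondrial membrane and let cytochrome c out, and BH3-only proteins, which bind guardians or effectors and promote death. Most share a short helix, the BH3 region, through which they bind each other. In mouse oocytes and cleaving embryos, Mcl1 is the guardian best known to be needed for survival, and Bcl2l10 (also called Boo or Diva) is known for its abundance in the oocyte. The mouse Bcl2l10 protein has been described both as protecting from apoptosis and as promoting it, so its place among the guardians here is by sequence class.

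The BH3 region is the feature that ties these genes together, so its coding sequence is shown for each member in which it was found, as DNA from the GENCODE M21 transcripts (GRCm38). The search was for a leucine codon, 3 codons of any kind, then a glycine and an aspartate codon. Each stretch has 27 bases, 5′ to 3′, and capitals mark the codon pair at the glycine and aspartate positions.
Mcl1: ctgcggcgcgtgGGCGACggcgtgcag
Bcl2l1: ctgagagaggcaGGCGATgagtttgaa
Bax: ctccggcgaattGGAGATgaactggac
Bak1: cttgctctcatcGGAGATgatattaac
Bcl2l11: ctgcggcggatcGGAGACgagttcaac
Bid: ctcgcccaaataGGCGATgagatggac
Bik: ctggcctgcatcGGCGATgagatggac
Bad: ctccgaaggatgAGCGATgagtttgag
The pattern was present in 7 of the 9 members, 1 match in each. In Bad a serine codon stands at the glycine position, and the stretch was found only when serine or alanine was allowed there. Neither form was found in the coding sequence of Bcl2l10, which says only that these codons are not in it. The strict pattern also occurs in 13.3% of 21504 mouse genes with a full coding sequence, so it does not identify the family by itself. The stretches lie at codons 194 to 202 of Mcl1, 90 to 98 of Bcl2l1 and of Bid, 63 to 71 of Bax, 76 to 84 of Bak1, 150 to 158 of Bcl2l11, 55 to 63 of Bik and 151 to 159 of Bad, counted in the longest annotated coding sequence.

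Library totals were 4726159 to 33650050 counts in the knockdown-labelled group and 33311665 to 43748621 counts in the controls. Knockdown-labelled replicates 1 to 3 held at most 8627403. Polq, the target, did not separate the groups. The knockdown-labelled replicates 1 to 4 had 16.9, 38.9, 29.2 and 41.1 counts per 1000000 (CPM, TMM-scaled) and control replicates 1 to 4 had 34.6, 49.7, 40.1 and 32.7 CPM (2-sided exact permutation test p = 0.343, where the smallest possible p is 0.0286). The libraries are therefore named by their label. All 12 markers of the 2-cell burst and all 10 oocyte markers were detected, summing to 1308 to 2092 and 3916 to 6296 CPM in knockdown-labelled libraries and to 1265 to 1868 and 3676 to 6427 CPM in controls. Of 12 cumulus and granulosa markers, 6 were at 0 in all 8 libraries (Foxl2, Fshr, Cyp11a1, Has2, Ptx3 and Inhba) and 6 were detected. Among those detected, Amhr2 had 1.78 to 7.40 CPM in knockdown-labelled libraries and 0.914 to 7.48 CPM in controls. Tnfaip6 had 0 to 10.7 CPM in knockdown-labelled libraries and 0 to 16.2 CPM in controls. The 12 summed to 2.58 to 16.6 CPM in knockdown-labelled libraries and 6.33 to 25.5 CPM in controls. Of 6 sperm markers 5 were at 0, Prm1 among them, and that list summed to 0 to 7.34 CPM in knockdown-labelled libraries and 0 to 7.06 CPM in controls. Of 10 later-embryo markers, 7 were detected and Cdx2, Sox17 and Krt8 were at 0, and the list summed to 50.6 to 115 CPM in knockdown-labelled libraries and 37.8 to 76.9 CPM in controls. Of 8 blood and fibroblast markers, 6 were detected and Hbb-bs and Lum were at 0, and the list summed to 8.09 to 19.6 CPM in knockdown-labelled libraries and 0.0229 to 21.5 CPM in controls. The part of these other cell types in the results was not tested. In pooled embryos, fewer cells and less RNA per cell cannot be told apart.

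Among the 9 followed genes, Bcl2l10 was the most abundant in every library and made up most of their summed level. Compared per length, which is needed between genes, its level was 324 ± 138 CPM per kilobase of merged exons in the knockdown-labelled libraries and 308 ± 125 in the controls (SD, n = 4 each). Mcl1 came next, at 17.4 ± 3.24 CPM per kilobase in knockdown-labelled libraries and 9.94 ± 1.96 in controls, and Bcl2l11 after it, at 8.96 ± 2.51 in knockdown-labelled libraries and 7.39 ± 1.94 in controls. Bcl2l10 was above Mcl1 in 8 of 8 libraries, and Mcl1 was above Bcl2l11 in 8 of 8. With the longest coding transcript as the length, a choice made after seeing the data, Mcl1 was above Bcl2l11 in 6 of 8 libraries and Bcl2l10 above Mcl1 again in 8 of 8. Measured in CPM, Bcl2l10 lay above 97.6% of the 13146 genes tested, with 317 genes higher.

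Below these 3 genes the order was loose. Averaged over the 8 libraries, Bik stood at 5.50 CPM per kilobase (range 1.37 to 9.70), Bax at 4.87 (0.126 to 9.33), Bid at 2.38 (0.447 to 3.75), Bcl2l1 at 1.54 (0 to 3.34) and Bad at 0.664 (0 to 2.26). Neighbours in this order were not separated: Bcl2l11 was above Bik in 5 libraries of 8, Bik above Bax in 5, Bax above Bid in 6, Bid above Bcl2l1 in 5, and Bcl2l1 above Bad in 5. Bak1 stood last, with Bad above it in 7 libraries. With the longest coding transcript as the length, Bax came before Bik, and each was the higher of the pair in 4 libraries.

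**Figure D1:**
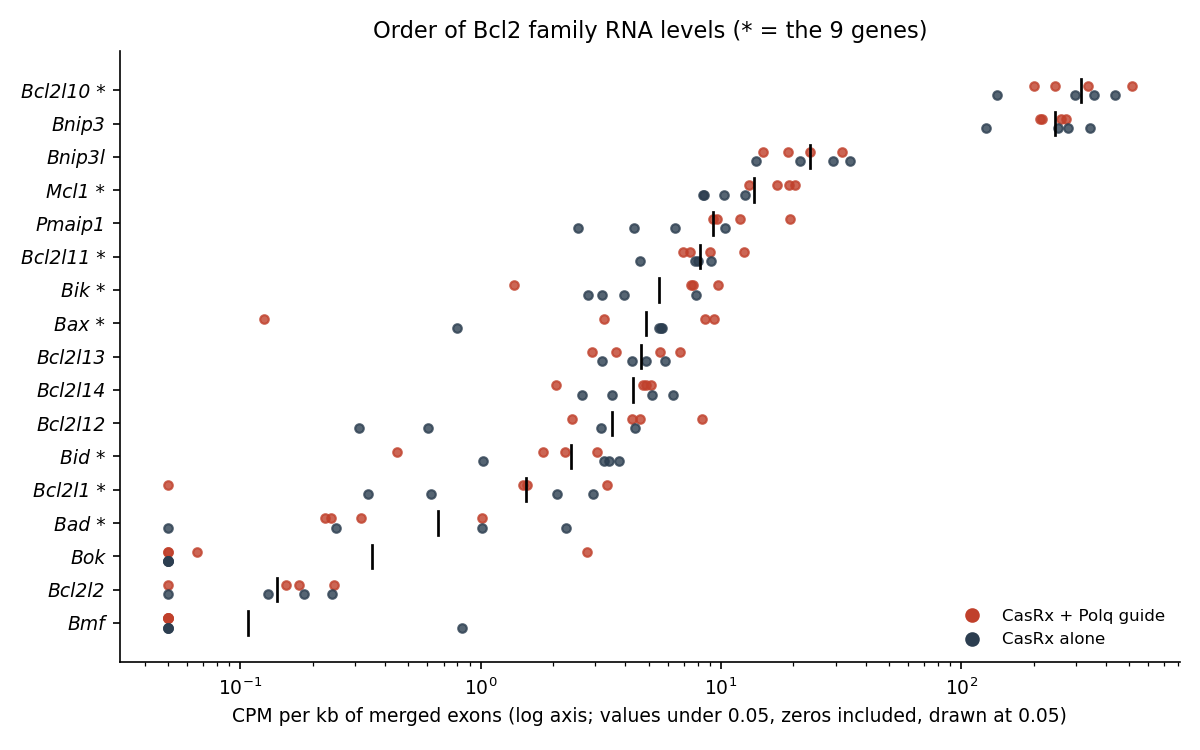
Level of each Bcl2 family gene in CPM per kilobase of merged exons (log axis), 1 point a library, knockdown-labelled in red above controls in dark blue, with the mean of 8 libraries as a black line. Genes with a mean of at least 0.1 are drawn, the 9 followed genes carry a star, and values under 0.05 are placed at 0.05. Bcl2l10 and Bnip3 stand over 100 in every library and overlap each other, and from Bnip3l down the points of neighbouring genes overlap as well.

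Among the guardians, Bcl2l10 had 624, 299, 244 and 412 CPM in knockdown-labelled replicates 1 to 4, against 172, 532, 434 and 364 CPM in control replicates 1 to 4. The groups overlapped: the highest library was knockdown-labelled replicate 1 and the lowest was control replicate 1. The counts behind these levels ran from 2113 to 18989 a library. By the edgeR fit, the knockdown-labelled group stood at 1.05 times the control level (95% interval 0.593 to 1.86), a log2 fold change of 0.07 with an SE of 0.37 and an adjusted p of 1.0. The sign turned to -0.16 without control replicate 1 and to -0.24 without knockdown-labelled replicate 1, so it rests on the 2 libraries at the ends.

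Mcl1, whose protein has a short life and binds several BH3-only proteins, was the member whose groups did not overlap. It had 44.6, 65.9, 58.2 and 69.7 CPM in knockdown-labelled replicates 1 to 4, against 43.0, 35.2, 28.9 and 28.8 CPM in control replicates 1 to 4. The lowest knockdown-labelled library stood just above the highest control. These 2 libraries, both replicate 1, differed by less than their counting error: 225 counts give an exact Poisson interval of 39.0 to 50.8 CPM in knockdown-labelled replicate 1, and 1406 counts one of 40.8 to 45.3 CPM in control replicate 1.

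The fitted Mcl1 level in the knockdown-labelled group was 1.76 times that of the controls (95% interval 1.17 to 2.63; edgeR quasi-likelihood log2 fold change 0.81, SE 0.26). It did not pass after adjustment over all genes (unadjusted p = 0.011, adjusted p = 1.0). DESeq2 gave an unadjusted p of 0.00364 and an adjusted p of 0.453, and limma-voom 0.0055 and 0.747. Groups without overlap were found in 392 of the 13146 genes (2.98%), with the knockdown-labelled group higher in 189 (1.44%), so that 1 such gene among 8 tested members is to be read against that share. Replicate 4, the 1 knockdown-labelled library as deep as the controls, gave a log2 fold change of 1.05 when set alone against them (SE 0.42, edgeR adjusted p = 0.839), in a comparison added after seeing the data that assumes it varies as the controls do. The direction was the same in all 20 alternatives, with log2 fold changes from 0.71 to 1.05 and adjusted p from 0.0622 to 1.0. The groups also did not overlap when scaled by library totals only, by the upper quartile or by DESeq2's size factors. After thinning to the smallest library, in 1 random draw, the nearest libraries stood at 46.9 CPM (knockdown-labelled) and 46.5 CPM (control). That gap is too small for 1 draw to tell whether the groups overlap.

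Bcl2l1, which encodes the guardian Bcl-xL, was the lowest of the followed guardians and varied strongly among libraries of both groups. Knockdown-labelled replicates 1 to 4 had 7.14, 15.3, 0 and 6.89 CPM, and control replicates 1 to 4 had 1.56, 13.4, 9.52 and 2.84 CPM. Knockdown-labelled replicate 3 had 0 counts, where the mean level of the other 7 libraries would have given 70.1, and control replicate 1 had 51, where it would have given 258. The interval of the fitted ratio ran from 0.153 to 7.51, so that a several-fold difference in either direction would not have been seen (log2 fold change 0.10, SE 1.26, adjusted p = 1.0). The sign turned without control replicate 1 (-0.22), control replicate 4 (-0.15) or knockdown-labelled replicate 2 (-0.53).

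**Figure D2:**
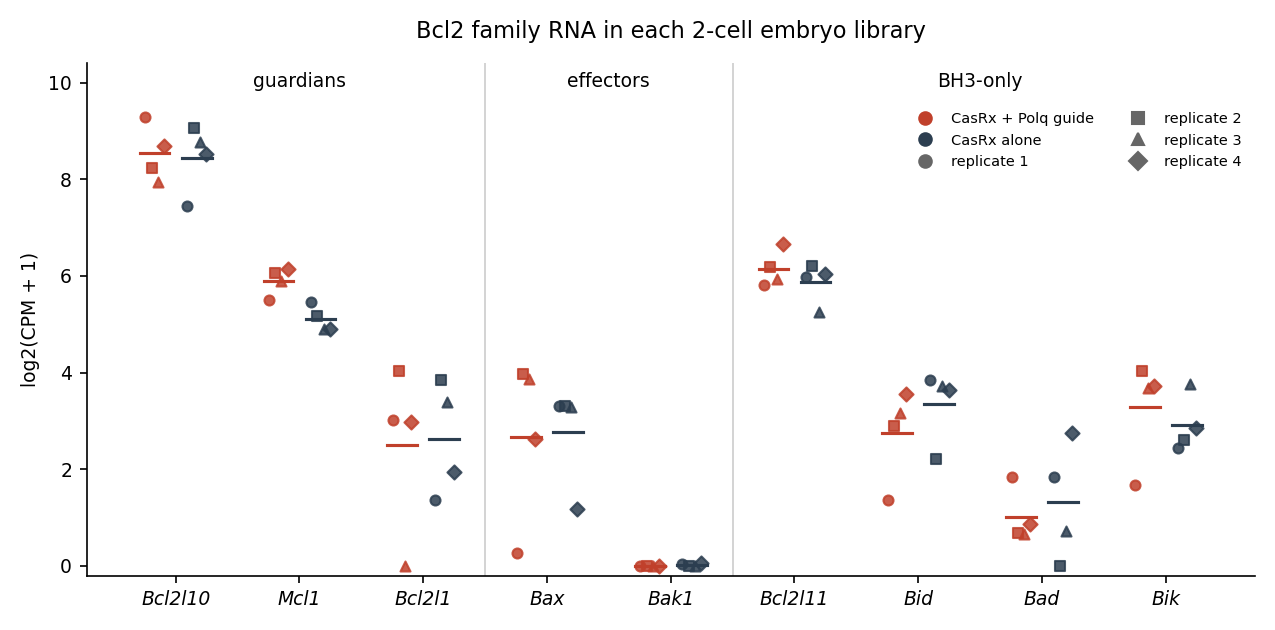
Level of the 9 genes in each library as log2(CPM + 1), knockdown-labelled libraries in red to the left of the controls in dark blue, with replicates by marker shape and the mean of the 4 log values as a line. The Mcl1 groups do not overlap, at 44.6 to 69.7 CPM against 28.8 to 43.0 CPM, those of the other tested members do, and Bak1 lies at the bottom.

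Of the 2 effectors, RNA was found for Bax and almost none for Bak1. Bak1 had 0 counts in each of the 4 knockdown-labelled libraries, and 1, 0, 0 and 2 counts in control replicates 1 to 4. A count of 0 allows up to 3 counts, which is 0.0940 to 0.595 CPM in the knockdown-labelled libraries and 0.0686 to 0.0945 CPM in the controls, so that a low Bak1 level in the shallower libraries was not detectable. These limits cover counting error only. The exons of Bak1 overlap those of Ggnbp1 on the opposite strand. Since the strand setting is not given, reads of the overlap may be shared. Bax had 0.198, 14.7, 13.5 and 5.14 CPM in knockdown-labelled replicates 1 to 4, against 8.90, 8.95, 8.74 and 1.26 CPM in control replicates 1 to 4.

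Bax was even in 3 of the controls and low in 1 library of each group. Knockdown-labelled replicate 1 held 1 count, where the mean level of the other libraries would have given 44.1, and control replicate 4 held 54, where it would have given 369. The fitted ratio was 1.21 (95% interval 0.238 to 6.11; log2 fold change 0.27, SE 1.05, adjusted p = 1.0). Without control replicate 4 the log2 fold change was -0.078, and it was also negative without knockdown-labelled replicate 2 or 3 (-0.14 and -0.055). Bax shares exonic sequence with Gm45808, an annotated gene on the same strand, and RSEM may divide reads between them.

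Among the followed BH3-only genes, Bcl2l11 (Bim) was the most abundant. It was also the steadiest of the 9 across libraries, with a coefficient of variation of 27.4% over the 8 libraries. It had 55.5, 72.0, 59.9 and 100 CPM in knockdown-labelled replicates 1 to 4, against 62.4, 73.2, 37.1 and 64.6 CPM in control replicates 1 to 4. The groups overlapped, and the lowest library was a control and the highest a knockdown-labelled one. The fitted ratio was 1.21 (95% interval 0.777 to 1.90; log2 fold change 0.28, SE 0.29, adjusted p = 1.0), and it stayed above 1 in all 20 alternatives.

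Bik, a BH3-only protein of the endoplasmic reticulum, had 2.18, 15.4, 11.9 and 12.2 CPM in knockdown-labelled replicates 1 to 4 and 4.46, 5.07, 12.6 and 6.28 CPM in control replicates 1 to 4. Knockdown-labelled replicates 2 to 4 stood near or above the highest control, and replicate 1 below all controls, on 11 counts. The log2 fold change was 0.56 (SE 0.71, adjusted p = 1.0). Bid, which caspase 8 cleaves to link death receptors to the mitochondria, had 1.59, 6.44, 7.97 and 10.8 CPM in knockdown-labelled replicates 1 to 4 and 13.3, 3.62, 12.1 and 11.5 CPM in control replicates 1 to 4. The groups overlapped through control replicate 2 (log2 fold change -0.59, SE 0.72, adjusted p = 1.0). The exons of Bid overlap those of Bcl2l13 on the opposite strand, and since the strand setting is not given, their reads may be shared.

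Bad, which growth factor signalling holds inactive by phosphorylation, was the lowest of the tested members and uneven among libraries. It had 2.58, 0.608, 0.578 and 0.815 CPM in knockdown-labelled replicates 1 to 4, on 13, 5, 5 and 26 counts, and 2.60, 0, 0.640 and 5.77 CPM in control replicates 1 to 4, on 85, 0, 28 and 248 counts. No order of the groups can be read from these values (log2 fold change -0.99, SE 1.61, adjusted p = 1.0), and the sign turned to 0.065 without control replicate 4. Bad overlaps Gpr137 on the opposite strand.

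Of the 8 members tested, 0 passed at an adjusted p under 0.05, as did 0 of all 13146 genes (0%) in the same edgeR test. At an unadjusted p under 0.05, 1 member (Mcl1, higher) was counted, against 369 of all genes (2.81%), with 1.1% higher and 1.71% lower in the knockdown-labelled group. DESeq2 called 0 members and 20 of all genes (0.152%), and limma-voom called 0 of either. Positive log2 fold changes were found in 6 members and negative ones in 2, with a median of 0.19 against -0.047 over all genes tested. These counts do not set the members apart from other genes.

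**Figure D3:**
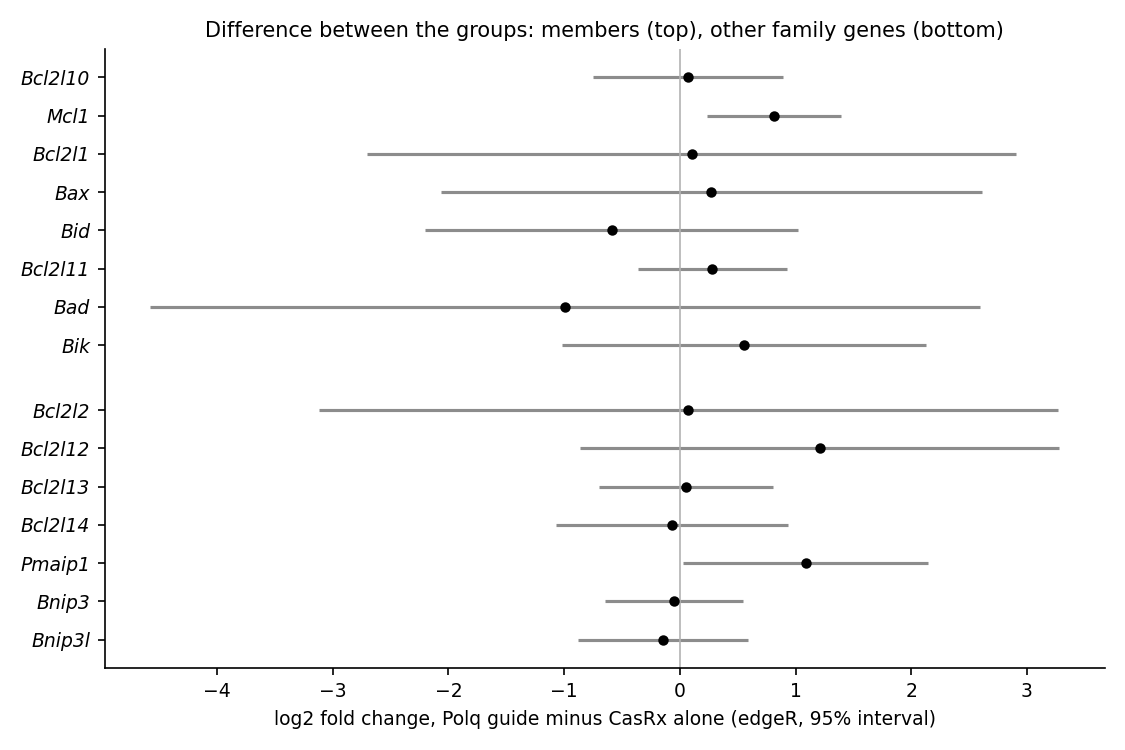
Log2 fold change, knockdown-labelled minus control, with 95% intervals from the edgeR fit for the 8 tested members (top) and the 7 tested other genes of the family (bottom). Mcl1 (0.81) and Pmaip1 (1.09) are the genes whose intervals do not reach 0, before adjustment over all genes.

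The balance of roles within a library was described by sums in CPM per kilobase and by ratios. The scaling of a library cancels in the ratios but not in the sums. The counting error of the shallower libraries stays in both, as for Bax with 1 count in knockdown-labelled replicate 1. Bcl2l10 made up 95.4%, 82.3%, 82.3% and 87.4% of the summed level of the 9 genes in knockdown-labelled replicates 1 to 4, and 80.6%, 93.1%, 91.7% and 91.6% in control replicates 1 to 4. Bcl2l10 was 11.7 to 39.2 times as high as Mcl1 in knockdown-labelled libraries and 11.2 to 42.4 times in controls. In knockdown-labelled replicate 1 and control replicate 1 this ratio departed from the other 3 libraries of the group, upwards to 39.2 and downwards to 11.2.

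The 4 followed BH3-only genes summed to 17.8 ± 5.95 CPM per kilobase in the knockdown-labelled libraries and 15.6 ± 1.74 in the controls (SD, n = 4 each). Both effectors together were at 5.32 ± 4.39 in the knockdown-labelled libraries and 4.42 ± 2.41 in the controls. By merged exons, Bcl2l11 stood at a mean of 0.511 of the Mcl1 level in knockdown-labelled libraries (range 0.438 to 0.612). In controls the mean was 0.751 (range 0.546 to 0.955), and these ranges overlap. With the longest coding transcript as the length, Bcl2l11 averaged 14.3 CPM per kilobase against 17.4 for Mcl1 in knockdown-labelled libraries. In controls Bcl2l11 then averaged 11.8 against 9.94 for Mcl1, so there the order of the means depends on the length. These ratios were not tested.

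**Figure D4:**
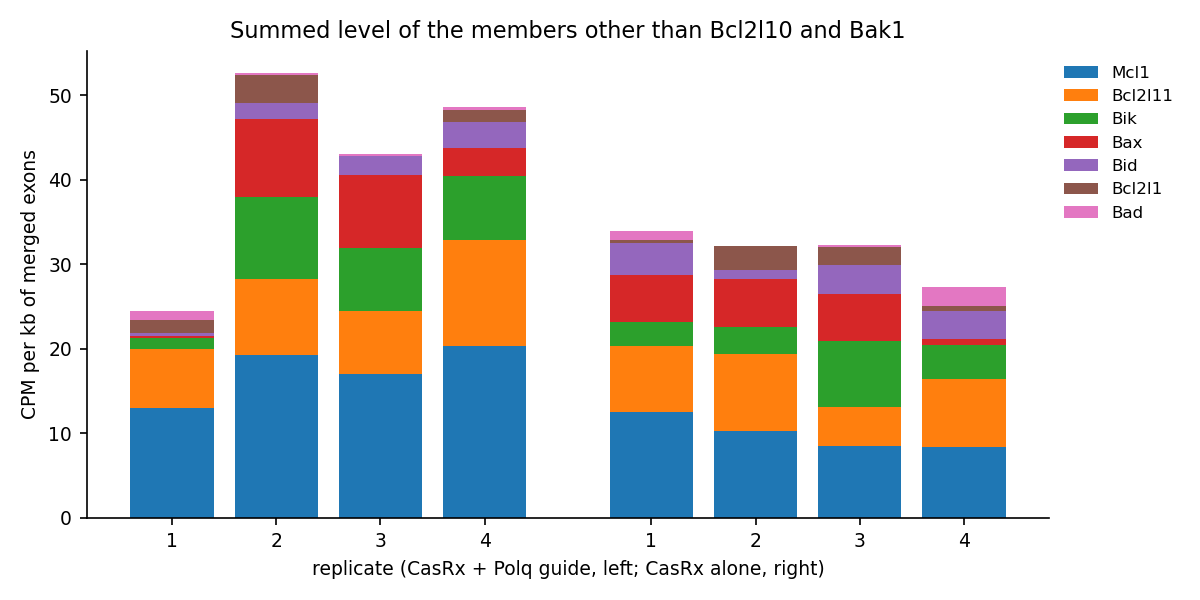
Summed level of 7 members in each library in CPM per kilobase of merged exons, knockdown-labelled libraries left and controls right; Bcl2l10, which would fill the plot, and Bak1, at or near 0, are left out. Mcl1 is the bottom segment of each bar, at 13.1 to 20.4 in knockdown-labelled libraries and 8.42 to 12.6 in controls, and the Bax segment is too thin to see in knockdown-labelled replicate 1.

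The coefficient of variation over 8 libraries was 27.4% to 38.6% for Bcl2l11, Mcl1 and Bcl2l10, and 50.6% to 77.8% for Bid, Bik, Bax and Bcl2l1, whose mean lay between 5 and 15 CPM. All tested genes in that range of means had a median coefficient of variation of 66.3%, and 44.1% of them had at least 1 library under 1 CPM, as Bax and Bcl2l1 did. At 30 to 100 CPM, the range of Mcl1 and Bcl2l11, the median was 34.3% and 0.452% of genes had such a library. For Bcl2l10 the spread of 38.6% stood above the median of 24.2% for genes at 100 to 500 CPM, whose upper quartile was 31.0%.

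The profile of Bcl2l10 over the 8 libraries was closest to those of Ahsa1, Arl6ip6 and Mgst3, by the root mean square difference of log2 CPM after centring each gene (0.19, 0.20 and 0.20, where the median over 5438 genes was 0.80). All 4 genes were lowest in control replicate 1 and highest in knockdown-labelled replicate 1. Mgst3, for example, had 507, 330, 223 and 462 CPM in knockdown-labelled replicates 1 to 4 and 191, 416, 367 and 332 CPM in control replicates 1 to 4. The profile of Mcl1 was closest to those of Elobl, Hnrnpa3 and Pik3c2a (0.20, 0.20 and 0.21, median 0.72). Hnrnpa3 had 50.0, 49.4, 51.4 and 50.9 CPM in knockdown-labelled replicates 1 to 4 and 45.7, 29.5, 24.8 and 26.9 CPM in control replicates 1 to 4, with control replicate 1 the highest control, as for Mcl1. Each set was chosen from 5438 genes over only 8 libraries and is given as a description.

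**Figure D5:**
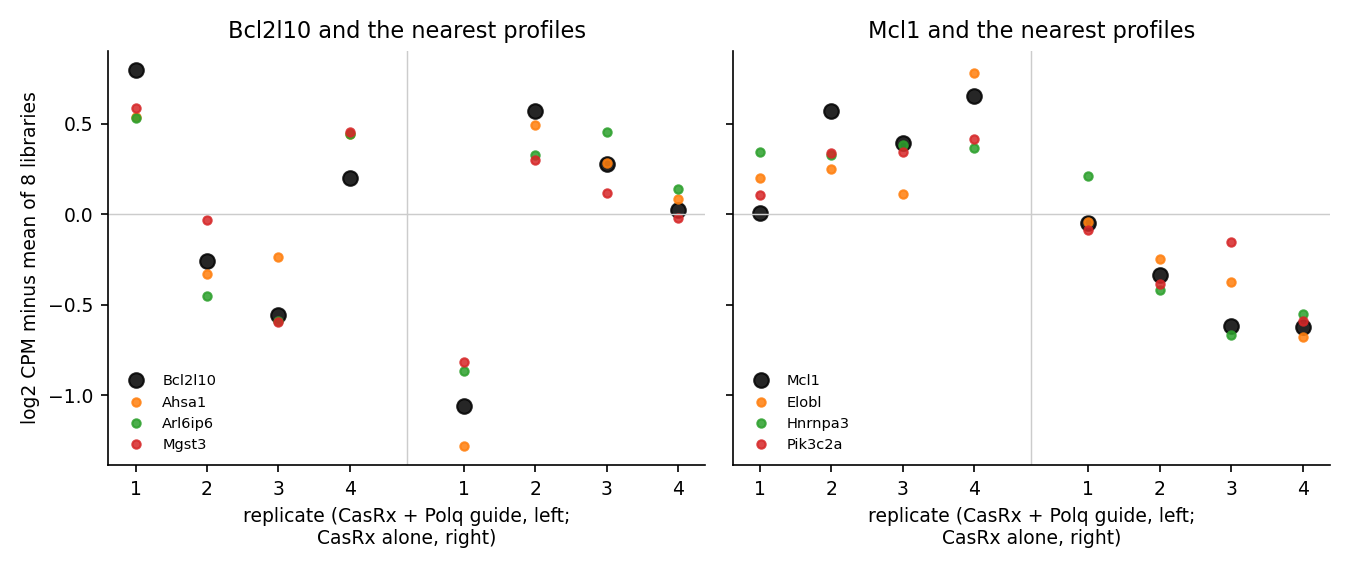
Log2 CPM minus the mean of the 8 libraries for Bcl2l10 (left) and Mcl1 (right) in black, each with the 3 genes nearest to it in colour, knockdown-labelled replicates 1 to 4 left of control replicates 1 to 4. Bcl2l10 spans 172 to 624 CPM with replicate 1 at opposite ends in the 2 groups, and Mcl1 spans 28.8 to 69.7 CPM.

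Of 16 other genes of the family, 7 were abundant enough to test, and 0 of these passed in edgeR, DESeq2 or limma-voom. An unadjusted edgeR p under 0.05 was found for 1 of the 7 (Pmaip1) and for 2.81% of all genes. Bnip3 and Bnip3l, mitochondrial proteins known for mitophagy, were the most abundant, at 545 ± 68.4 and 86.1 ± 28.1 CPM in knockdown-labelled libraries and 566 ± 205 and 95.5 ± 34.7 CPM in controls. Per length of merged exons, Bnip3 came second after Bcl2l10 among the 25 genes, with a mean of 245 ± 62.7 CPM per kilobase (SD, n = 8). The order of these 2 genes was loose, since Bnip3 was the higher in 3 of 8 libraries (knockdown-labelled replicates 2 and 3 and control replicate 1). With the longest coding transcript as the length, Bnip3 was also the higher in control replicate 3 (442 against 356 CPM per kilobase) and control replicate 4 (325 against 299). Which of the 2 genes was the higher there therefore depended on the length used. Pmaip1 (Noxa), a BH3-only protein that binds Mcl1, had 32.9, 26.4, 25.3 and 53.0 CPM in knockdown-labelled replicates 1 to 4, against 6.94, 28.4, 17.7 and 11.8 CPM in control replicates 1 to 4. The groups overlapped through control replicate 2 alone (log2 fold change 1.09, SE 0.47, unadjusted p = 0.045, adjusted p = 1.0 by edgeR).

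The other tested relatives also overlapped between the groups. Bcl2l13 had 43.0 ± 16.0 CPM in knockdown-labelled libraries and 41.3 ± 10.2 CPM in controls, Bcl2l14 had 17.2 ± 5.90 CPM in knockdown-labelled libraries and 18.0 ± 6.72 CPM in controls, and Bcl2l12 had 9.67 ± 4.89 CPM in knockdown-labelled libraries and 4.18 ± 3.92 CPM in controls. Bcl2l2 (Bcl-w) was at 0.643 ± 0.461 CPM in knockdown-labelled libraries and 0.619 ± 0.458 CPM in controls. The founding guardian Bcl2 had 0 counts in the knockdown-labelled libraries and 3 counts in control replicate 4 alone, and the 3 Bcl2a1 genes in the table had at most 1 count in any library. The p53 target Bbc3 (Puma) had 13 counts in knockdown-labelled replicate 3, 5 in control replicate 4 and 0 elsewhere. Bok, a further effector, had 44 counts in knockdown-labelled replicate 3, 1 in replicate 2 and 0 elsewhere, and Bmf had 1 count in knockdown-labelled replicate 2, 192 in control replicate 3 and 0 elsewhere.

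Downstream of the mitochondria, 18 of 21 genes were tested, with 4 positive and 14 negative log2 fold changes (median -0.29, against -0.047 over all genes). Of these, 0 passed in any of the 3 tools, and 0 had an unadjusted edgeR p under 0.05, where 2.81% of all genes did. Cycs, the cytochrome c released by Bax and Bak, was the most abundant, at 303 ± 78.7 CPM in knockdown-labelled libraries and 369 ± 59.8 CPM in controls. The inhibitor of apoptosis Birc3 had 38.4 ± 14.4 CPM in knockdown-labelled libraries and 64.2 ± 24.0 CPM in controls, and its paralogue Birc2 had 5.35, 13.0, 12.7 and 4.07 CPM in knockdown-labelled replicates 1 to 4 and 0.0306, 0.0315, 3.23 and 1.12 CPM in control replicates 1 to 4. Birc2 was the 1 gene of this list whose groups did not overlap, where 1.44% of all genes did not overlap with the knockdown-labelled group higher. Its level in control replicates 1 and 2 rested on 1 count each, while control replicates 3 and 4 had 141 and 48 counts. The log2 fold change was 2.99 (SE 1.44, unadjusted p = 0.065, adjusted p = 1.0 by edgeR). DESeq2 gave an unadjusted p of 0.0164 and an adjusted p of 0.84, and limma-voom 0.0146 and 0.747. Birc6, a giant ubiquitin ligase that inhibits caspases, was at 68.6 ± 23.3 CPM in knockdown-labelled libraries and 70.9 ± 13.4 CPM in controls. Casp9, which the apoptosome activates, did not pass the filter and was not tested. It had 1, 1, 0 and 0 counts (0.198, 0.121, 0 and 0 CPM) in knockdown-labelled replicates 1 to 4. Control replicates 1 to 4 had 5, 101, 0 and 38 counts (0.153, 3.18, 0 and 0.884 CPM).

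The list of proteins that bind or modify family members also held transcription factors of members. It gave 22 genes found in the table, all tested. Their log2 fold changes were positive in 6 and negative in 16 (median -0.13). Over all genes tested, 6128 were positive and 7018 negative (median -0.047). Of the 22 genes, 0 passed in any of the 3 tools, and 1 (Vdac2) had an unadjusted edgeR p under 0.05, where 2.81% of all genes did. Vdac2, which recruits Bak and Bax to mitochondria, had the smallest unadjusted p of the list (0.036 by edgeR), with 160, 100.5, 96.4 and 138 CPM in knockdown-labelled replicates 1 to 4 and 127, 197, 216 and 199 CPM in control replicates 1 to 4. The groups overlapped through control replicate 1, which lay below the highest knockdown-labelled library. Ywhag, a 14-3-3 protein of the kind that holds phosphorylated Bad, was at 141 ± 45.4 CPM in knockdown-labelled libraries and 101 ± 7.18 CPM in controls. Akt1, a kinase that phosphorylates Bad, was at 6.66 ± 2.40 CPM in knockdown-labelled libraries and 12.7 ± 2.43 CPM in controls. Neither gene overlapped between the groups, but the nearest libraries were close, at 112 CPM (knockdown-labelled) and 111 CPM (control) for Ywhag and at 9.82 CPM (knockdown-labelled) and 9.95 CPM (control) for Akt1. The share of all genes without overlap was 1.44% with the knockdown-labelled group higher and 1.54% with it lower. Dynll1 and Dynll2, dynein light chains that bind Bcl2l11 and Bmf, were the most abundant, at 1628 ± 139 and 329 ± 153 CPM in knockdown-labelled libraries and 1571 ± 163 and 339 ± 133 CPM in controls.

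In GRCm38, Bcl2l10 (ENSMUSG00000032191.5) lies on chromosome 9 from 75347758 to 75351632 and Mcl1 (ENSMUSG00000038612.16) on chromosome 3 from 95658788 to 95663176, both on the plus strand with no annotated gene overlapping their exons. Bcl2l11 lies on chromosome 2 from 128126038 to 128162547 and Bcl2l1 on the same chromosome from 152780668 to 152831728. Bax lies on chromosome 7 from 45461697 to 45466898, Bak1 on chromosome 17 from 27019810 to 27029009, Bid on chromosome 6 from 120891930 to 120916853, Bad on chromosome 19 from 6941861 to 6951899 and Bik on chromosome 15 from 83526862 to 83544634. Each of these genes is protein-coding in the annotation.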

How the data were processed

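The authors deposited unnormalised expected counts by gene symbol. The submitters' processing notes name RSEM 1.2.28, STAR 2.7.3a, Trim Galore 0.6.10 and GRCm38 (mm10). TRIzol and the NEBNext Ultra RNA kit were used, per the labels' protocols. The sources used here do not give the annotation release, the strand setting or the handling of duplicates. Molecular identifiers are not mentioned, so a count is not a molecule. Counts were rounded (4.22% of values changed), filtered with filterByExpr (minimum count 10, minimum total 15; 13146 genes left), scaled by TMM and compared with edgeR 4.0.16 (robust quasi-likelihood, group as the only term, R 4.3.3), with Benjamini-Hochberg adjustment over all genes and a threshold of 0.05. limma 3.58.1 and DESeq2 1.42.0 were alternatives. The submitters call the 4 samples of a group biological replicates. Lengths are merged exons of GENCODE M21, not RSEM's effective lengths. Intervals are 95%.

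The members and lists were chosen with earlier results of these data known. The genes named are the members, Polq, each tested family gene, the 3 genes with the smallest p and the 2 most abundant of each pathway list, and the 3 nearest profiles of Bcl2l10 and Mcl1 among genes at 10 CPM or more without a predicted symbol (log2 CPM, prior count 2). Genes outside this rule (Bok, Bmf, Bbc3, Bcl2, Casp9 and the marker genes) were chosen after their values were seen. Some genes of the downstream list, among them 1 that the rule names, are not reported here. Of 23 partner genes, 1 symbol was not matched. Same-numbered replicates did not deviate together (correlations of deviations from -0.075 to 0.0085).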

Additional observations from a re-analysis of the deposited data

Results flagged for a closer look

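In 4 of 64 groups of 4 libraries checked among the named genes, 1 library stood apart from the other 3 by Dixon's criterion at 95%, which sets the gap to the nearest library against the group's range; chance gives about 1 in 20. Bax was 1.26 CPM in control replicate 4, where the other controls had 8.74 to 8.95 CPM. Bad was 2.58 CPM in knockdown-labelled replicate 1, where the other 3 had 0.578 to 0.815 CPM, on 13 counts. Bcl2l14 was 8.38 CPM in knockdown-labelled replicate 2, where the other 3 had 19.3 to 21.0 CPM. Elobl was 417 CPM in knockdown-labelled replicate 4, where the other 3 had 262 to 288 CPM.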

How the results depend on the processing

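The counts of members and of genes in the 3 pathway lists past the threshold were 0 in all 20 alternatives, and the count over all genes was 0 in 18 of them, leave-one-out fits included; DESeq2 gave 20 after the same filter and 131 over all genes with a count, an alternative chosen after seeing the data. The mean share of Bcl2l10 in the summed level of the 9 genes ran from 85.1% to 89.1% over 11 alternatives. The log2 fold change of Mcl1, Bcl2l11 and Bik kept its sign in all 20. That of Polq ran from -0.47 to -0.11 with 1 library left out and was 0.073 when replicate 4 alone stood for the knockdown-labelled group, which was tried after the data had been seen. In the same setting Bax was -0.43 and Bid 0.099. With limma-voom Bcl2l1 was -0.53, Bax -0.0076 and Bad 0.45. With 1 library left out, Bcl2l10 ran from -0.24 to 0.29, Bcl2l1 from -0.53 to 0.66, Bax from -0.14 to 0.67 and Bad from -1.75 to 0.065. The replicate block turned Bad to 0.16 and changed no call, and it left Mcl1 at 0.82 (adjusted p = 1.0); since same-numbered libraries did not deviate together, the numbers are not taken as pairs. The causes were not tested. In knockdown-labelled replicates 1 to 3, 1 count is 0.116 to 0.198 CPM, which sets the smallest level that could be seen there.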
